A study of Mus musculus with 4 samples.

Results

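The genes described here are 10 genes of choline uptake and phosphatidylcholine turnover, compared between leukemic and normal mouse erythroid cells set to differentiate. They are the choline transporters Slc44a1 and Slc44a2, the choline kinases Chka and Chkb, the cytidylyl transferases Pcyt1a and Pcyt1b, the final transferases Chpt1 and Cept1, the methyltransferase Pemt and the phosphatase Phospho1. The set was chosen by function, with the MEL against ES-EP differences of these same arrays already known. The members' differences are therefore given as a description with no p-value printed, and counts of members past a threshold support nothing. A total of 9 of the 10 genes had features annotated to 1 gene alone, 10 features in all out of 28944 tested features and 19938 measured genes. Slc44a1 had 2 features and each other measured member had 1. The feature that holds Chkb is annotated to a second gene as well, so Chkb was not analysed here.

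RNA was measured on 4 single-colour Affymetrix Mouse Gene 1.0 ST arrays, whose probes lie along the length of each transcript. One group was 2 cultures of MEL cells, an erythroleukemia line, grown with serum and puromycin and induced with 17b-estradiol for 48 hours. The other was 2 cultures of ES-EP cells, which are normal erythroid progenitors that had been grown out of embryonic stem cells. These had been expanded in erythropoietin, IGF-1, dexamethasone and stem cell factor and were then kept for 24 hours in erythropoietin, insulin and the glucocorticoid antagonist mifepristone. Cultures were lettered A and B in each group. Line, medium, inducer and hours differed together, so their parts in any difference cannot be told apart, and no undifferentiated culture was part of the comparison. Strain, genotype and what the puromycin selects for were not stated in the labels. The labels call the arrays duplicates and give no more on how separate the cultures were, so errors measure the spread between these cultures, which may be technical. In bulk RNA, fewer cells of a type and less RNA per cell cannot be told apart.

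Phosphatidylcholine is the main phospholipid of most animal cell membranes. In the Kennedy pathway, choline taken up from the medium is phosphorylated by choline kinase, activated to CDP-choline by a cytidylyl transferase, which is the usual rate-limiting step, and joined to diacylglycerol by a transferase. Pemt makes the same lipid by methylating phosphatidylethanolamine and is best known from liver. Phospho1 removes phosphate from phosphocholine, is known from bone mineralization and is also known from maturing red cells.

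Duplicates lay close together and the groups far apart. Arrays of 1 group correlated at r = 0.997 and 0.998 over features, and arrays of different groups at 0.948 to 0.949, as a description of arrays that share their normalization. The 7 measured erythroid markers had mean log2 signals of 7.04 or more in both groups, and 3 were at least 2-fold lower in MEL, namely Alas2, Slc4a1 and Epb42. Without a fold criterion 5 of the 7 were lower and 2 higher, Gata1 at 1.37-fold and Epor at 1.34-fold (limma, adjusted p = 0.00251 and 0.00413). Myeloid and pluripotency markers had mean log2 signals of at most 5.31 in the MEL group and 5.88 in the other, stromal markers of 4.21 to 6.98 in both, and all differences in these 3 lists were within 2-fold. Of 4 measured megakaryocyte markers 2 were at least 2-fold higher in MEL. These were Pf4, 20.8-fold, and Itga2b, 4.67-fold, while Gp9 and Ppbp were within 2-fold. Without a fold criterion Ppbp passed as higher too, at 1.59-fold (limma, adjusted p = 0.000732), and Gp9 did not pass. The log2 of the summed signal of this list was 9.97 to 10.04 on the MEL arrays and 8.03 to 8.21 on the ES-EP arrays. In the mast cell list Ms4a2 alone of 5 genes was at least 2-fold lower in MEL. Without a fold criterion 4 of the 5 were lower, where 36.9% of all genes were. The log2 summed signal of the mast cell list was 6.66 to 6.74 in MEL against 8.22 to 8.25. These marker shifts run along the same contrast as the results that follow, and their part in them was not tested.

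Of the 9 measured members, 3 were at least 2-fold higher in MEL at an adjusted p under 0.05 (limma, over all features) and 1 was at least 2-fold lower. Slc44a1, Slc44a2 and Chpt1 were the higher genes and Phospho1 the lower one. Of all genes 7.38% passed this criterion as higher and 4.93% as lower, and nothing is read from the members' share because the set was proposed on this contrast. The median difference of the 9 genes, MEL minus ES-EP on the log2 scale, was 0.29, against -0.14 over all genes. Quantile normalization moved that general offset to -0.02 and cyclic loess to 0.02, so small member differences are read against it. The gap between duplicates over the 10 features was 0.004 to 0.22 between MEL cultures and 0.01 to 0.19 between ES-EP cultures, and standard errors of the differences ran from 0.08 to 0.10.

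**Figure D1:**
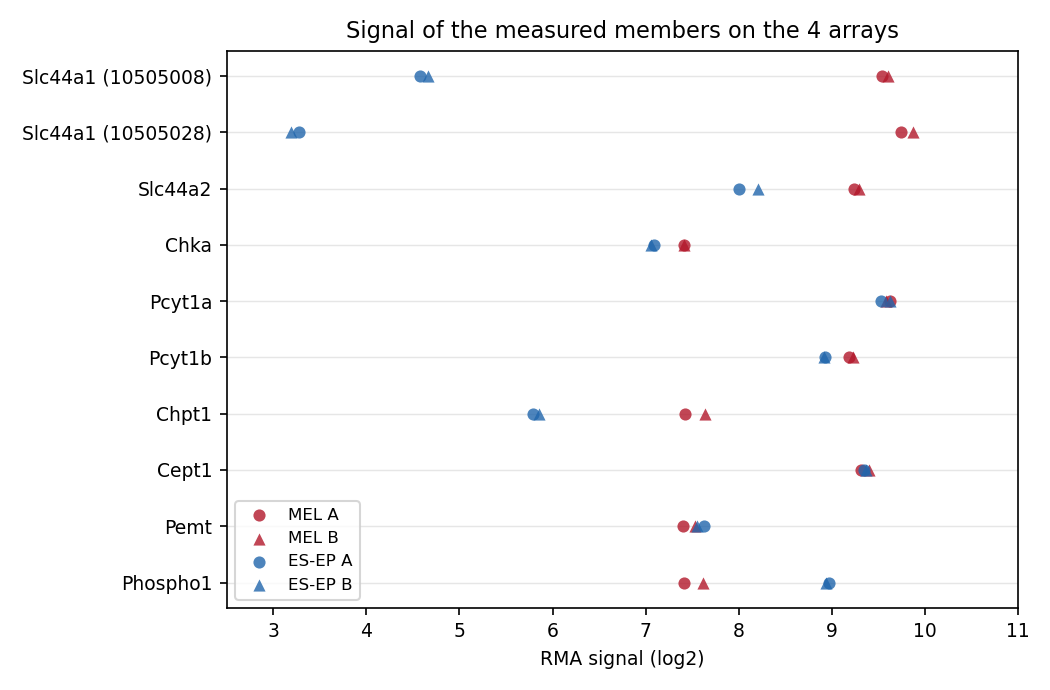
RMA signal on the log2 scale (x axis) of the 10 features of the measured members (rows) on each of the 4 arrays, with MEL in red, ES-EP in blue, circles for culture A and triangles for culture B. Both features of Slc44a1 lie between 9.54 and 9.87 in MEL and between 3.19 and 4.66 in ES-EP cells, while the 4 points of Pcyt1a and of Cept1 overlap.

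Slc44a1 encodes the widely expressed choline transporter CTL1, which brings choline across the plasma membrane. The feature that was brighter over the 4 arrays, 10505008, had log2 signals of 9.54 and 9.60 in MEL and 4.58 and 4.66 in ES-EP cells. The means were 9.57 ± 0.05 and 4.62 ± 0.06 (SD, n = 2), a difference of 4.95 ± 0.08 (SE) or 30.9-fold. It stood 11th from the top of all 19938 genes ranked by their difference. The second feature, 10505028, is annotated to predicted and cDNA entries of the gene and to no curated transcript. It read 9.75 and 9.87 in MEL and 3.27 and 3.19 in ES-EP cells, a difference of 6.58 ± 0.09 (SE) or 95.6-fold, and ranked 3rd among all 28944 features. Both features thus separated the groups by far more than the duplicates differed, in the same direction. In ES-EP cells feature 10505008 lay at the 24.4th percentile of all tested features and the other at the 2.49th, close to the floor that RMA leaves. A fold against such a level is not firm, because the table has no detection calls to tell a low level from background. The 2 features differed by 1.63 in their log2 differences.

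Slc44a2 encodes a second transporter of the same family, CTL2, known from the inner ear and from neutrophils and platelets. Its log2 signals were 9.24 and 9.30 in MEL and 8.01 and 8.20 in ES-EP cells. The difference was 1.16 ± 0.10 (SE, 95% interval 0.94 to 1.39), or 2.24-fold higher in MEL. The ES-EP duplicates were 0.19 apart, the widest gap of that group among the members, and the lower MEL value still stood 1.04 above the higher ES-EP value. The difference stayed between 1.07 and 1.26 under the other settings tried.

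**Figure D2:**
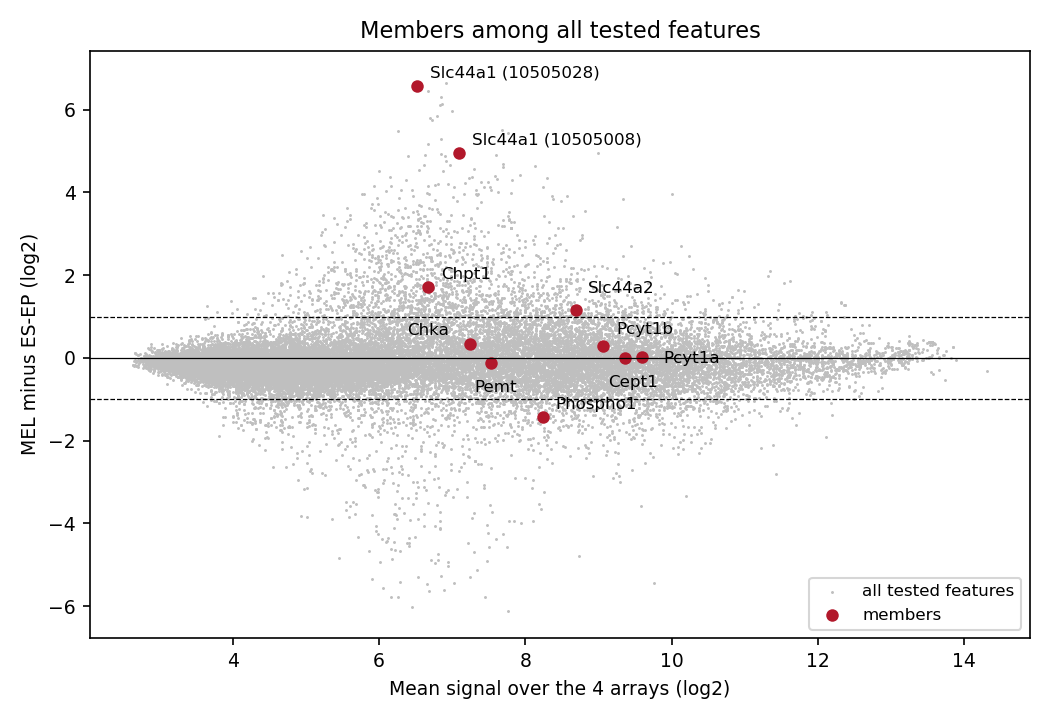
Difference of MEL minus ES-EP on the log2 scale (y axis) against the mean log2 signal over the 4 arrays (x axis) for the 28944 tested features in grey and the 10 member features in red, with dashed lines at a 2-fold difference. The 2 features of Slc44a1 sit at the upper edge, at 4.95 and 6.58, Phospho1 lies below the lower line at -1.44, and 5 members lie within 2-fold.

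Of the choline kinases, which carry out the first committed step, Chka alone was analysed, and its RNA differed little. Chka, a choline kinase that also accepts ethanolamine, had log2 signals of 7.42 and 7.41 in MEL and 7.09 and 7.06 in ES-EP cells. Its difference was 0.34 ± 0.08 (SE), or 1.27-fold, with a 95% interval of 0.15 to 0.53. The groups did not overlap, and the difference was larger than either gap between duplicates. It ranged from 0.19 after quantile normalization to 0.41 after centring on array medians, so its size depends on the scaling more than on any 1 culture.

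The cytidylyl transferases, which make CDP-choline, were close to level. Pcyt1a, the main form in most tissues, read 9.63 and 9.59 in MEL and 9.53 and 9.63 in ES-EP cells. Its difference was 0.03 ± 0.08 (SE), with a 95% interval of -0.17 to 0.23, and the groups overlapped. Without ES-EP culture A the difference changed sign, to -0.02. Pcyt1b, a second gene for this activity known from brain and gonads, read 9.19 and 9.23 in MEL and 8.93 and 8.92 in ES-EP cells. The groups did not overlap, with a difference of 0.29 ± 0.08 (SE, 95% interval 0.10 to 0.48), or 1.22-fold. The interval of either gene lies within a 2-fold difference of RNA signal between these cultures, and activity at this step was not measured.

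The 2 transferases that finish the pathway differed from each other. Chpt1, a Golgi enzyme specific for choline, read 7.42 and 7.64 in MEL and 5.79 and 5.85 in ES-EP cells. Its means were 7.53 ± 0.16 and 5.82 ± 0.04 (SD, n = 2), a difference of 1.71 ± 0.10 (SE) or 3.27-fold higher in MEL. The MEL duplicates were 0.22 apart, the widest gap among the members, against 1.57 between the nearest arrays of the groups. Cept1, the enzyme of the endoplasmic reticulum that takes both choline and ethanolamine, read 9.31 and 9.40 in MEL and 9.35 and 9.37 in ES-EP cells. Its difference was -0.003 ± 0.08 (SE), with a 95% interval of -0.20 to 0.19, and the groups overlapped. The sign of the Cept1 difference turned positive under all 3 other scalings, at 0.06 to 0.10.

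Pemt, the route that needs no free choline, read 7.40 and 7.53 in MEL and 7.63 and 7.55 in ES-EP cells. The difference was -0.13 ± 0.09 (SE), with a 95% interval of -0.33 to 0.08. The groups were 0.02 apart at their nearest, less than the gap between either pair of duplicates. After quantile normalization the difference was -0.26, which passed without a fold criterion, and after cyclic loess -0.08. It was -0.06 without MEL culture A and -0.19 without MEL culture B.

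Phospho1 was the one member lower in MEL by at least 2-fold. Its log2 signals were 7.42 and 7.62 in MEL and 8.97 and 8.93 in ES-EP cells. The means were 7.52 ± 0.14 and 8.95 ± 0.03 (SD, n = 2), a difference of -1.44 ± 0.10 (SE), or 2.71-fold lower in MEL. Both MEL arrays lay at least 1.32 under both ES-EP arrays. The erythroid markers Alas2 and Epb42 moved along with it, 2.51-fold and 2.30-fold lower in MEL, and Slc4a1 was 43.4-fold lower. Gata1 and Epor went the other way, 1.37-fold and 1.34-fold higher in MEL. The log2 summed signal of the erythroid list was 13.94 and 13.99 on the MEL arrays and 14.84 and 14.85 on the ES-EP arrays. The part of these markers in the Phospho1 difference was not tested.

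**Figure D3:**
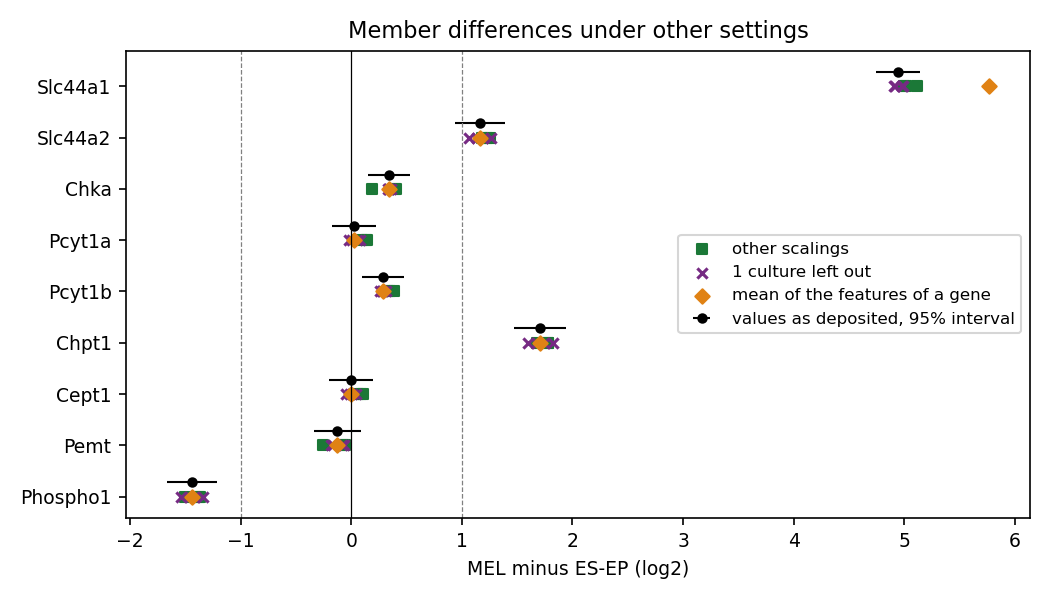
Difference of MEL minus ES-EP on the log2 scale (x axis) for the 9 measured members (rows), as black points with 95% intervals for the brightest feature on the values as deposited, and as coloured marks after 3 other scalings, with each of the 4 cultures left out, and with a gene's features averaged. Slc44a1 moves to 5.76 when its 2 features are averaged, and the settings leave Slc44a2, Chpt1 and Phospho1 beyond the dashed 2-fold lines and the other 5 between them.

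The sequences just upstream of the members that differed by at least 2-fold are shown because these genes sit in 1 pathway and their starts differ in base composition. RefSeq windows of assembly GRCm38.p6 were matched for all 10 genes, 18 windows in all, and the 250 bases before each start were searched on both strands. The motifs were the GATA letters AGATAA or TGATAA, the KLF letters CCNCNCCC, the E-box CACGTG and the CCAAT box CCAAT. Capitals mark every match, and neighbouring KLF matches can overlap. The window of Slc44a1 lies on chr4:53440163-53440412 (+ strand), that of Slc44a2 on chr9:21320469-21320718 (+), that of Chpt1 on chr10:88503971-88504220 (- strand) and that of Phospho1 on chr11:95824250-95824499 (+). Slc44a1 and Slc44a2 each have a further window that is not printed.
Slc44a1: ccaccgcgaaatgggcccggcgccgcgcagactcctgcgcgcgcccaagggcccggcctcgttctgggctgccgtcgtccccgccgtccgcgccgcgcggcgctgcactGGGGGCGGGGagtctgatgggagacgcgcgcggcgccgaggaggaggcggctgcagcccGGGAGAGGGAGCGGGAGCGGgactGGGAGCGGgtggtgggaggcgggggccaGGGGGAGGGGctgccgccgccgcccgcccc
Slc44a2: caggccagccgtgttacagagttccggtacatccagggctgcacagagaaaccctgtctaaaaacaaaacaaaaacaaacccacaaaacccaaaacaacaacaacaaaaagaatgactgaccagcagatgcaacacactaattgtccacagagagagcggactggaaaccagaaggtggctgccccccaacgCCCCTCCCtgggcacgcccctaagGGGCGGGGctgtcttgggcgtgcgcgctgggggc
Chpt1: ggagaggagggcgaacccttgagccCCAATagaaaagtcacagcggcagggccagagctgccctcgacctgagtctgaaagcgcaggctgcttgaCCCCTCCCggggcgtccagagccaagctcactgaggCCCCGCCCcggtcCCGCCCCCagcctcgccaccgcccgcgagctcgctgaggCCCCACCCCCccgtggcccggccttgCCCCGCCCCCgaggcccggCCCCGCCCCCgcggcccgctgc
Phospho1: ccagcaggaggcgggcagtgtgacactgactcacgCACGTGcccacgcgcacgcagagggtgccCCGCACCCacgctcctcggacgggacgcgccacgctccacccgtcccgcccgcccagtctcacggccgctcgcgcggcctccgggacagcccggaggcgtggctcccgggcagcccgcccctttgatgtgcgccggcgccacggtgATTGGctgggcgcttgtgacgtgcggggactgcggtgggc

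The windows of Slc44a1, Chpt1 and Phospho1 were rich in G and C, at 81.2%, 75.6% and 75.6%, against 55.6% for Slc44a2 and a median of 52.4% over 32851 windows of all genes. Slc44a1 held 8 matches to the KLF letters and Chpt1 9, while Slc44a2 held 2 and Phospho1 1. KLF letters occurred in 10 of 18 member windows (55.6%) and in 45.9% of all windows. None of the 4 printed windows held the GATA letters. They occurred in 3 of 18 member windows (16.7%), of Pcyt1b, Cept1 and Pemt, and in 16.6% of all windows. The E-box was found for Phospho1 alone among the members' windows, against 6.02% of all windows. CCAAT occurred in 8 of 18 (44.4%) against 33.9%. These are matches of letters and say nothing on whether a factor binds there.

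The wider phospholipid network was taken from 9 lists of 110 other genes, listed for what they do, of which 103 had a feature of their own. These lists too were drawn up with earlier results of these data known. Their shares and the p-values of their genes are therefore a description. Of these 14 (13.6%) were at least 2-fold higher in MEL and 9 (8.74%) lower by 2-fold or more at an adjusted p under 0.05 (limma), against the 7.38% and 4.93% of all genes. Without a fold criterion 35 passed as higher and 35 as lower, where 21.8% and 36.9% of all genes did. After cyclic loess the counts were 41 and 27, and the shares of all genes 29.0% and 24.5%. The median difference of the 103 genes was -0.0007 on the log2 scale, against -0.14 over all genes. No set was tested as a set. Genes beyond the largest called rise and fall of each list, and beyond 11 named for what they do, were picked after their values were seen.

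Enzymes that break down phosphatidylcholine and its remnants gave the largest falls. Of 22 measured phospholipases and glycerophosphodiesterases 3 were at least 2-fold higher in MEL and 2 lower, with a median difference of -0.03. Gdpd3, which releases the head group from lysophospholipids, had log2 signals of 5.09 and 4.88 in MEL and 9.43 and 9.49 in ES-EP cells. It was 22.2-fold lower in MEL (-4.47 ± 0.10, SE, n = 2 per group, adjusted p = 1.26e-07). Its MEL level was dim, at the 35.8th percentile of all tested features. Gpcpd1, which splits glycerophosphocholine and so frees choline inside the cell, read 7.69 and 7.91 in MEL and 10.80 and 10.81 in ES-EP cells. It was 8.03-fold lower in MEL (n = 2 per group, adjusted p = 6.41e-07). In contrast, Pla2g15, a phospholipase of lysosomes, was 6.35-fold higher (adjusted p = 6.16e-07). The further higher genes were Pld4 at 3.87-fold and Lypla1 at 2.14-fold. Pla2g15 and Pld4 were dim in ES-EP cells, with mean log2 signals of 5.19 and 4.76, so their folds are not firm. Pla2g4a, the cytosolic phospholipase that frees arachidonic acid, differed by 0.04 with a 95% interval of -0.17 to 0.25, and by -0.02 without MEL culture B.

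Of 18 measured genes that move phospholipids between and across membranes 5 were at least 2-fold higher in MEL and 2 lower, with a median difference of 0.38. Pctp, the phosphatidylcholine transfer protein, read 8.29 and 8.38 in MEL and 4.79 and 5.03 in ES-EP cells, 10.7-fold higher in MEL (3.42 ± 0.10, SE, adjusted p = 4.53e-07). Its ES-EP level lay at the 30.3rd percentile of all tested features, so that it too was dim in those cells. The flippase genes Atp11a and Atp8b2 were 8.41-fold and 5.21-fold higher and the scramblase gene Ano6 2.64-fold. Atp11a was dim in ES-EP cells as well, at percentile 34.4. Plscr1, named for phospholipid scrambling, was 2.38-fold higher by its brighter feature and 5.71-fold by its other one, with a mean difference of 1.88 on the log2 scale over both. Stard10, a carrier of phosphatidylcholine and phosphatidylethanolamine, was 2.54-fold lower (adjusted p = 1.20e-05), and the flippase gene Atp8a1 2.34-fold lower. Stard7, which carries phosphatidylcholine to mitochondria, was 1.45-fold higher (0.53 ± 0.08, SE, adjusted p = 0.00143). The megakaryocyte markers Pf4 and Itga2b were higher in the same arrays as Pctp. Of the same list Ppbp was 1.59-fold higher and Gp9 was level, with a log2 difference of -0.06. Whether these markers bear on Pctp was not tested.

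**Figure D4:**
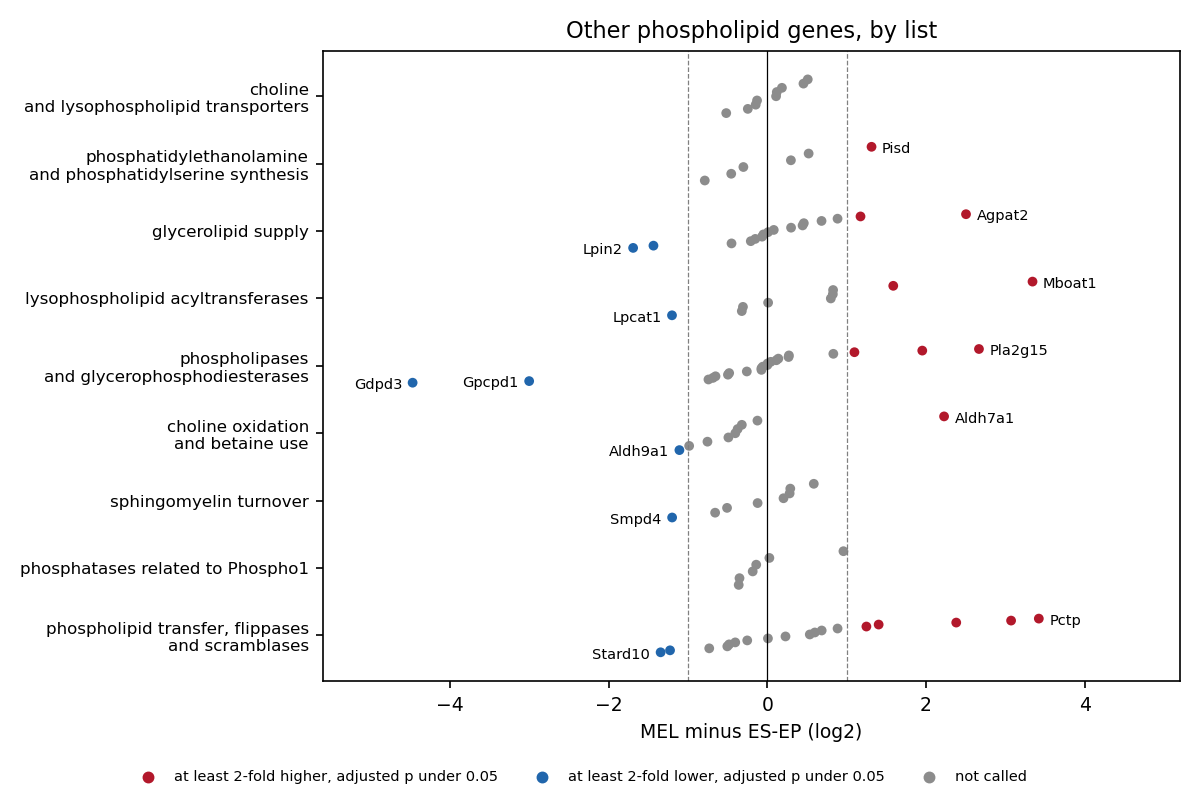
Difference of MEL minus ES-EP on the log2 scale (x axis) for the 103 measured genes of 9 lists (rows, points spread vertically by rank), with red for genes at least 2-fold higher in MEL, blue for those at least 2-fold lower and grey for the rest. Gdpd3 at -4.47 and Gpcpd1, 8.03-fold lower, lie far left of all other points, and Pctp at 3.42 and Mboat1 at 3.34 farthest right.

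Acyltransferases that rebuild phospholipids from lysophospholipids included 2 higher and 1 lower gene of 9, with a median difference of 0.80. Mboat1, which acylates lysophosphatidylserine and lysophosphatidylethanolamine, was 10.1-fold higher in MEL (3.34 ± 0.13, SE, adjusted p = 1.20e-06), from 4.72 and 5.01 in ES-EP to 8.10 and 8.32 in MEL cells. Lpcat2, which also makes platelet-activating factor, was higher by 1.59 on the log2 scale. Mboat1 and Lpcat2 were dim in ES-EP cells, with mean log2 signals of 4.87 and 5.19, so the sizes of their rises are not firm. Lpcat1, the enzyme of saturated phosphatidylcholine in lung, was 2.30-fold lower (adjusted p = 1.98e-05). Lpcat3, which adds polyunsaturated chains, was at 11.04 and 11.21 in MEL and 11.09 and 11.14 in ES-EP cells. Its difference of 0.01 had a 95% interval of -0.21 to 0.22 and changed sign without MEL culture B (-0.07) or ES-EP culture A.

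The supply of diacylglycerol and its precursors split in both directions, with 2 higher and 2 lower genes of 16 and a median difference of 0.04. Agpat2, which makes phosphatidic acid, was 5.67-fold higher in MEL (log2 signals of 9.14 and 9.26 against 6.63 and 6.77, adjusted p = 1.19e-06), and Gpam, which acylates glycerol phosphate at mitochondria, 2.26-fold. Lpin2, a phosphatase that turns phosphatidic acid into the diacylglycerol used by Chpt1 and Cept1, was 3.24-fold lower (-1.69 ± 0.08, SE, adjusted p = 4.10e-06), and Agpat4 2.71-fold lower.

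The parallel branch for phosphatidylethanolamine and phosphatidylserine held 1 gene of 6 at least 2-fold apart, with a median difference of -0.004. Pisd, which makes phosphatidylethanolamine in mitochondria, was 2.48-fold higher in MEL (1.31 ± 0.08, SE, adjusted p = 1.25e-05). Pcyt2, the ethanolamine counterpart of Pcyt1a, was 1.73-fold lower (-0.79 ± 0.08, SE, adjusted p = 0.000159), and Selenoi, the counterpart of Chpt1, 1.43-fold higher (0.52 ± 0.11, SE, adjusted p = 0.00544). Ptdss2, which exchanges the head group of phosphatidylethanolamine for serine, was 1.37-fold lower (adjusted p = 0.00244). Ptdss1, which does so with phosphatidylcholine, was 1.23-fold lower (-0.30, adjusted p = 0.0296). That call was lost after all 3 other scalings (-0.18 to -0.24) and without MEL culture A (-0.21), ES-EP culture A (-0.34) or ES-EP culture B (-0.26), with adjusted p = 0.0769 to 0.161, and with the control features kept (adjusted p = 0.0615).

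Sphingomyelin is made with phosphocholine taken from phosphatidylcholine, and sphingomyelinases release it again. Of 8 measured genes listed for sphingomyelin turnover 0 were at least 2-fold higher by limma and 1 lower, with a median difference of 0.04. When no fold was required 2 were higher and 3 lower, where 21.8% and 36.9% of all genes were. The 2 higher were Smpd1 and Samd8, and Samd8 is no sphingomyelin synthase. Smpd4, a neutral sphingomyelinase, was 2.30-fold lower in MEL (-1.20 ± 0.09, SE, adjusted p = 3.55e-05). Sgms1, the main sphingomyelin synthase, was 1.58-fold lower (-0.66 ± 0.09, SE, adjusted p = 0.000695).

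Genes of choline oxidation were mostly dim, with a median log2 signal of 5.21 in the MEL group and 5.56 in the other, and a median difference of -0.41. Without a fold criterion 1 of 9 was higher and 7 were lower, where 21.8% and 36.9% of all genes were. The lower quartile of all signals was 4.46 and 4.38 on the MEL arrays and 4.66 and 4.65 on the ES-EP arrays. Dim features thus read lower in MEL in general, and the part of this offset in the 7 was not tested. Aldh7a1, which can oxidize betaine aldehyde, was the 1 higher gene of 9, 4.68-fold (2.23 ± 0.08, SE, adjusted p = 1.09e-06). Aldh9a1, a related dehydrogenase, was the 1 lower gene, 2.16-fold (-1.11 ± 0.08, SE, adjusted p = 3.13e-05), and fell just under 2-fold after quantile normalization (-0.96) and cyclic loess (-0.999).

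Of 9 measured genes for choline and lysophospholipid transport, 0 passed at 2-fold in either direction by limma, with a median difference of 0.11. When no fold was required 2 were higher and 1 lower, where 21.8% and 36.9% of all genes were. The family members Slc44a3, Slc44a4 and Slc44a5 were dim, with log2 signals of 3.84 to 5.17 on all 4 arrays. Flvcr1, a choline transporter also studied as a heme exporter of erythroid cells, read 9.10 and 9.35 in MEL and 9.09 and 9.15 in ES-EP cells. Its difference of 0.11 had a 95% interval of -0.14 to 0.36, and was -0.02 without MEL culture B.

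Among 6 genes grouped with Phospho1 by enzyme class or reaction, 0 differed by 2-fold by limma, with a median difference of -0.16. When no fold was required 1 was higher and 1 lower, where 21.8% and 36.9% of all genes were. The lower one was Etnppl, which is no phosphatase and was dim, with log2 signals of 3.60 to 4.10. Phospho2, the nearest relative of Phospho1, read 8.32 and 8.48 in MEL and 8.57 and 8.61 in ES-EP cells. The difference was -0.19 (95% interval -0.40 to 0.03, limma adjusted p = 0.117). Without MEL culture B it was -0.26 and passed without a fold criterion (adjusted p = 0.0491). Whether the difference of Phospho1 exceeds that of Phospho2 was not tested.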

How the data were processed

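The deposited table holds log2 values that the authors made with GeneSpring GX and RMA, as the submitters' processing notes and per the labels' text say. Their range and replicate scatter gave the scale. Version, filters, probe annotation and build: not given in the sources used here. Because RMA draws the arrays' distributions together, a change in total RNA per cell is hidden.

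A total of 6613 control features, known from the array's design, were left out and 28944 tested. Genes came from a platform annotation updated by Entrez identifier (21698 of 21789 features of 1 gene matched), with the brightest feature standing for a gene. The test was limma 3.58.1 in R 4.3.3 (lmFit and eBayes, 2 residual and 5.15 prior degrees of freedom), with Benjamini-Hochberg adjustment over all features. Calls required a difference of 1 or more on the log2 scale and an adjusted p under 0.05. An exact permutation test of 4 arrays cannot go below p = 0.333. The procedure was tested on simulated data. Members and lists were chosen with earlier results of these data known. The rule for named genes took all members, each list's largest called rise and fall, and 11 genes named for what they do, of which 1 is not reported here. Other genes were named after their values were seen. The number of arrays limits the precision. Alternatives covered scaling, prior, filters, fold criterion, replicate letter, feature summary and left-out cultures.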

Additional observations from a re-analysis of the deposited data

How the results depend on the processing

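The counts of members at least 2-fold higher (3) and lower (1) in MEL were the same under the other scalings, both other priors, the filters, the averaging of features and each left-out culture. Without a fold criterion 5 were higher and 1 lower, where 21.8% and 36.9% of all genes were. The 14 higher and 9 lower genes of the other lists became 24 and 17 at 1.5-fold and 35 and 35 with no fold criterion. All member differences kept their side of the 2-fold threshold in the 14 settings with a value per gene, where Slc44a1 ran from 4.91 to 5.76, Chpt1 from 1.60 to 1.82 and Phospho1 from -1.54 to -1.34. Of the other phospholipid genes with settings computed Aldh9a1 alone crossed it. Such settings were computed for a chosen part of these genes only. The higher count of the other lists was 15 after quantile normalization, centring and cyclic loess. A gene outside that part thus crossed the threshold as well. With the replicate letter as a block the counts were 3, 1, 14 and 9, so the replicate block changed none of them. The differences of A minus B in both groups correlated at r = 0.11 over features, and the letters were not taken as pairs. Without a fold criterion Chka lost its call after quantile normalization and without either ES-EP culture, and Pcyt1b without either ES-EP culture, while Pemt passed as lower after quantile normalization. After centring, limma gave all named genes 1 common standard error of 0.13. With 2 arrays per group and no detection calls, levels near the floor, as of Slc44a1 in ES-EP cells, give no firm fold.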
